A study of Mus musculus with 12 samples.

Results

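Decorin (Dcn), lumican (Lum), osteoglycin (Ogn), biglycan (Bgn) and fibromodulin (Fmod), periostin (Postn), the fibrillins (Fbn1 and Fbn2) and microfibril-associated protein 4 (Mfap4) were followed across 12 poly(A) RNA-seq libraries of mouse neurons. These 9 genes, of 33560 with counts, were picked by name because Dcn, Fbn2, Ogn and Mfap4 had lower levels in the knockout libraries of this same data set. The difference between genotypes is therefore given as a description with no test, and only the effect of the drug, which the choice did not use, was tested. All 9 genes passed the filter on low counts.

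The neurons were glutamatergic cells grown from embryonic stem cells and collected at day 21 in vitro. They were wild type (WT) or came from lines labelled Daam1-MIC_KO, in which a microexon of Daam1, a formin that nucleates actin filaments, is deleted (KO). Neurons of each genotype received water as vehicle or 10 µM Y-27632, an inhibitor of the kinase ROCK, for 2 h. The 4 groups held 3 libraries each, 1 from each of 3 labelled cell lines of that genotype, so each of the 6 lines gave 1 vehicle and 1 inhibitor library, named here by group and line. The series text speaks of hippocampus, whereas every sample label names cultured neurons, and the labels were followed. The labels do not say whether the lines are separate clones, so p-values measure the spread between these lines and libraries.

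Small leucine-rich proteoglycans are secreted proteins whose leucine-rich repeats bind collagen fibrils and set their spacing and thickness. Decorin and biglycan carry chondroitin or dermatan sulfate chains and also bind TGF-beta, while lumican and fibromodulin are keratan sulfate proteoglycans and osteoglycin belongs to a further class of the family. Fibrillins assemble into extracellular microfibrils, which form the scaffold of elastic fibres and hold latent TGF-beta, and MFAP4 binds fibrillin and elastin. In the brain these genes are known mainly from fibroblasts of the meninges and vessel walls rather than from neurons.

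The upstream sequences of Bgn, Ogn and Postn are shown because the 9 genes varied together between the WT libraries and these 3 represent a proteoglycan with sugar chains, a proteoglycan of another class and a matricellular protein. Promoters of 5 of the 9 genes were matched by symbol in a RefSeq table (GRCm38.p6). Each line holds the 250 bases before the annotated start, 5′ to 3′ on the plus strand, at chrX:73483351-73483600 for Bgn, chr13:49607765-49608014 for Ogn and chr3:54360857-54361106 for the second of the Postn starts. Capitals mark matches on either strand to the motifs searched, which were the TATA box TATAAA, the GC box GGGCGG, the AP-1 motif TGANTCA, the TEAD motif GGAATG, the E-box CAGNTG and the CArG box by its usual degenerate form.
Bgn: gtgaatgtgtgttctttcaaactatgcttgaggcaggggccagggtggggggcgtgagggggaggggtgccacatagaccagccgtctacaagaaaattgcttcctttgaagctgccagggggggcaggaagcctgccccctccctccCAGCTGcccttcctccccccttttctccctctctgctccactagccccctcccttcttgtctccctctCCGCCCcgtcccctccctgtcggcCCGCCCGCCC
Ogn: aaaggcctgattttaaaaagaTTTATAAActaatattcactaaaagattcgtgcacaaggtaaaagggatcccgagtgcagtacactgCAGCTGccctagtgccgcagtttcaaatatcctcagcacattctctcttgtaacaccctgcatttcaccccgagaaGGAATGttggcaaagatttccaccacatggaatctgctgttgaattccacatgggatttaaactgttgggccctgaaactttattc
Postn: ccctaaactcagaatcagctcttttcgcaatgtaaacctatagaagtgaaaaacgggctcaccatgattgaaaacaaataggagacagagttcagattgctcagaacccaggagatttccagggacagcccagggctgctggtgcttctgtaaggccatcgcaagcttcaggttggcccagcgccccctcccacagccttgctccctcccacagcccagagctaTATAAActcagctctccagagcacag
The Postn window held TATAAA beginning 26 bases before the start, whereas the window of the other Postn start, chr3:54359017-54359266, held none of the motifs searched. In the Ogn window, overlapping matches to TATAAA on opposite strands began 229 and 227 bases before the start, the TEAD motif began at 86 and the E-box at 162. The Bgn window held GGGCGG beginning 34, 10 and 6 bases before the start, the last pair overlapping, and the E-box at 102. Its GC content was 64.4%, against 42.0% for Ogn and 52.0% for Postn. Among 32851 promoters of the table cut to the same length, 12.4% held the TATA box, 32.7% the GC box, 6.75% the AP-1 motif, 12.6% the TEAD motif, 44.8% the E-box and 1.47% the CArG box. No motif searched was present in all 3 windows, and a match is only a string of letters.

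Library totals ran from 23253566 to 35012561 counts. Daam1 as a whole gene had a mean of 167 ± 14.7 CPM in WT vehicle and 166 ± 14.2 CPM in KO vehicle (SD, n = 3), a measure that does not resolve the microexon and so does not check the labels. CPM are counts scaled to a common library total. KO inhibitor line 3 stood apart, with a median correlation of 0.854 to the other libraries against 0.953 to 0.986 for the rest, and its glutamatergic neuron markers summed to 531 CPM against 1879 to 2723 CPM elsewhere. WT vehicle line 2 and WT inhibitor line 3 were each closest to the other (r = 0.985) and not to a library of their own group or line. Genotype differences that these 3 libraries moved most are also given without the library concerned, and drug effects mainly by their medians.

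Per gene length, the matrix genes were low to moderate in these cultures, and Postn and Dcn led in every group. In WT vehicle the deposited cRPKM, reads per gene length and library size in the authors' corrected form, averaged 14.2 ± 12.1 for Postn, 13.1 ± 11.1 for Dcn, 6.07 ± 5.66 for Bgn and 4.16 for Fbn1 (SD, n = 3). Lum averaged 3.80, Ogn 2.37, Fbn2 2.16, Mfap4 1.33 and Fmod 0.543 cRPKM in that group. Postn lay above 76.8% of the 21505 genes with a mean above 0 in WT vehicle, and Fmod above 36.1%. In KO vehicle Postn averaged 2.76, Dcn 1.73, Fbn1 1.24, Bgn 0.853, Lum 0.520, Fbn2 0.333 and Fmod 0.233 cRPKM, with Ogn at 0.0833 and Mfap4 at 0.0800 at the bottom. The ranges of genes next to each other in this order overlapped over the 3 libraries for all 8 pairs in WT vehicle, KO vehicle and WT inhibitor. In KO inhibitor they overlapped for 7 of 8 pairs, the exception being Fbn2 (lowest 0.330) above Mfap4 (highest 0.300).

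In KO cultures given vehicle, all 9 genes had lower fitted levels than in WT, and 8 of 9 did so in inhibitor, where Fmod was the exception. The median log2 fold change over the 9 genes was -2.82 in vehicle, -2.27 in inhibitor and -2.45 with both libraries of a line added up, beside -0.01, -0.0005 and 0.04 over all genes tested. These directions are what the choice of genes looked for. No gene of the whole data set passed an adjusted p of 0.05 by edgeR's quasi-likelihood test with Benjamini-Hochberg adjustment in any of these 3 comparisons, so the background is 0% called. At an unadjusted p below 0.05, edgeR held 307 genes in vehicle, 540 in inhibitor and 426 over line sums, and DESeq2 held 499, 866 and 666. At an adjusted p below 0.05 DESeq2 called 11, 18 and 88. In these bulk samples, fewer matrix-producing cells and less RNA per cell cannot be told apart.

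**Figure D1:**
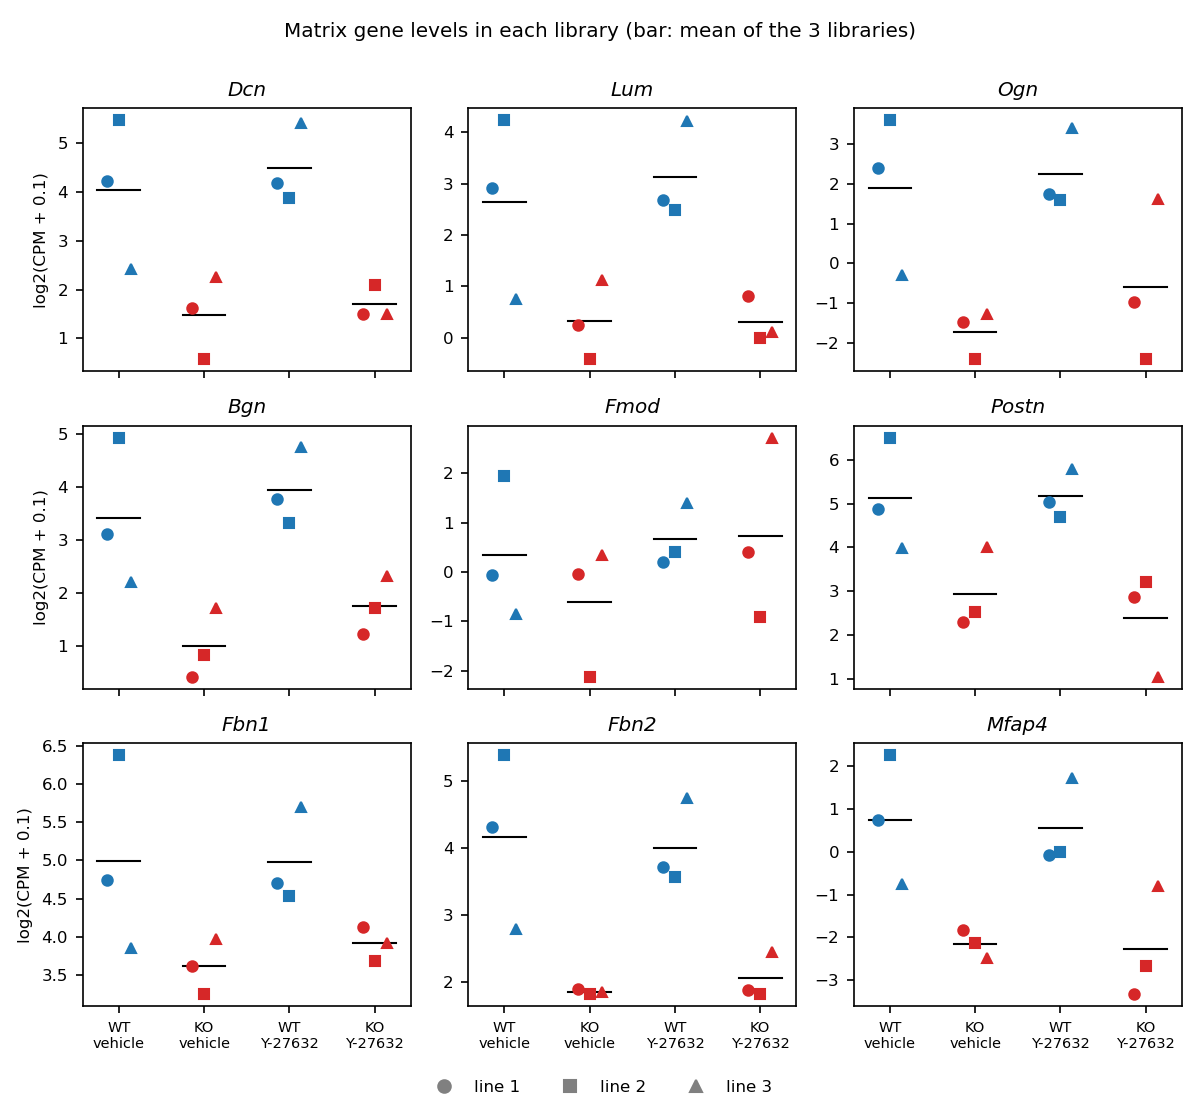
Level of each matrix gene, as log2(CPM + 0.1), in the 12 libraries by group (WT blue, KO red; circle, square and triangle for lines 1, 2 and 3; bar, mean of the 3 libraries). In WT vehicle every gene is highest in line 2 and lowest in line 3, and in WT inhibitor every gene is highest in line 3, while Fmod and Ogn are highest among the KO libraries in line 3 with inhibitor.

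Decorin was the only proteoglycan of the 5 whose genotypes were apart in all 12 libraries. Dcn (chr10:97479609-97518143, plus strand, GRCm38) was at 18.5, 44.2 and 5.25 CPM in WT vehicle lines 1 to 3 and at 2.96, 1.38 and 4.70 CPM in KO vehicle. With inhibitor it was at 18.2, 14.5 and 42.4 CPM in WT and at 2.72, 4.16 and 2.73 CPM in KO. Every KO library lay below every WT library, although the lowest WT value, 5.25 CPM in vehicle line 3, was close to the highest KO value. Against WT, the log2 fold change in KO was -2.90 ± 0.76 in vehicle and -2.96 ± 0.76 in inhibitor (SE), which is 7.49-fold and 7.80-fold lower. Over line sums it was -2.88 ± 0.21. It was 3.91-fold lower in vehicle without WT vehicle line 2 and 5.09-fold lower in inhibitor without WT inhibitor line 3.

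Biglycan, the closest relative of decorin, was also highest in WT vehicle line 2 and WT inhibitor line 3. Bgn (chrX:73483602-73495933, plus strand) stood at 8.60, 30.4 and 4.50 CPM in WT vehicle and at 1.24, 1.69 and 3.21 CPM in KO vehicle. With inhibitor it stood at 13.5, 9.84 and 26.7 CPM in WT and at 2.25, 3.21 and 4.89 CPM in KO. Within each treatment the genotypes did not overlap, but KO inhibitor line 3 exceeded WT vehicle line 3. The difference was -2.82 ± 0.74 in vehicle, -2.27 ± 0.71 in inhibitor and -2.42 ± 0.38 over line sums (log2 fold change ± SE). In vehicle it was -1.67 ± 0.57 without WT vehicle line 2, and in inhibitor -1.76 ± 0.74 without WT inhibitor line 3.

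Lumican, whose gene lies 47.0 kb from Dcn on the same strand, was about as far apart between genotypes. Lum (chr10:97565128-97572703) gave 7.39, 18.7 and 1.60 CPM in WT vehicle and 1.10, 0.649 and 2.08 CPM in KO vehicle. It gave 6.34, 5.5 and 18.4 CPM in WT inhibitor and 1.66, 0.896 and 0.985 CPM in KO inhibitor. The vehicle groups overlapped, because WT line 3 fell below KO line 3, and the inhibitor groups did not. Its log2 fold change was -2.85 ± 0.86 in vehicle and -3.09 ± 0.86 in inhibitor (SE). Lum was at -1.81 ± 0.77 in vehicle without WT vehicle line 2 and at -2.33 ± 0.84 in inhibitor without WT inhibitor line 3.

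Osteoglycin had the largest fitted difference in vehicle of the 9 genes and one of the least steady. Ogn (chr13:49608046-49624501, plus strand) was at 5.16, 12.1 and 0.718 CPM in WT vehicle and at 0.256, 0.0865 and 0.314 CPM in KO vehicle, which is 7, 2 and 8 counts. With inhibitor it was at 3.25, 2.92 and 10.5 CPM in WT and at 0.406, 0.0867 and 2.96 CPM in KO. KO inhibitor line 3 thus reached the WT levels, whereas the other KO libraries held 13 counts or fewer. The log2 fold change was -4.73 ± 1.41 in vehicle and -2.27 ± 1.22 in inhibitor (SE), and the latter was -4.49 ± 1.30 without that library. Ogn was at -3.71 ± 1.38 in vehicle without WT vehicle line 2 and at -1.43 ± 1.29 in inhibitor without WT inhibitor line 3. The gene overlaps Cenpp on the opposite strand, with 0 shared exonic bases.

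Fibromodulin did not follow the other proteoglycans. Fmod (chr1:134037254-134048277, plus strand) was at 0.860, 3.78 and 0.457 CPM in WT vehicle and at 0.878, 0.130 and 1.18 CPM in KO vehicle. With inhibitor it was at 1.05, 1.24 and 2.54 CPM in WT and at 1.22, 0.434 and 6.51 CPM in KO, the last being its highest library of all 12. The genotypes overlapped in both treatments. The log2 fold change was -1.21 ± 1.11 in vehicle, 0.75 ± 1.08 in inhibitor and 0.18 ± 0.92 over line sums (SE). It turned to 0.15 ± 1.15 in vehicle without the WT library of line 2, and to -0.96 ± 1.01 in inhibitor without the KO library of line 3.

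Periostin, a secreted protein that links collagen, fibronectin and integrins, was the gene with the most cRPKM in WT vehicle. Postn (chr3:54361109-54391037, plus strand) was at 29.2, 90.9 and 15.7 CPM in WT vehicle and at 4.83, 5.62 and 16.2 CPM in KO vehicle. The inhibitor libraries held 32.7, 25.8 and 54.9 CPM in WT and 7.22, 9.22 and 1.97 CPM in KO. In vehicle the KO library of line 3 reached the lowest WT library, and in inhibitor the same KO line had the lowest value of all. The log2 fold change was -2.35 ± 0.79 in vehicle, -2.62 ± 0.79 in inhibitor and -2.45 ± 0.28 over line sums (SE). In vehicle it was -1.33 ± 0.70 without WT vehicle line 2. In inhibitor it was -2.25 ± 0.85 without WT inhibitor line 3 and -2.20 ± 0.82 without KO inhibitor line 3.

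Fibrillin-1, the main fibrillin of adult microfibrils, had the smallest difference among the genes that were lower in both treatments. Fbn1 (chr2:125300594-125507993, minus strand) was at 26.6, 83.0 and 14.4 CPM in WT vehicle and at 12.2, 9.43 and 15.6 CPM in KO vehicle. With inhibitor it was at 25.9, 23.2 and 51.6 CPM in WT and at 17.4, 12.8 and 15.1 CPM in KO. The KO libraries spanned only 9.43 to 17.4 CPM, and WT vehicle line 3 lay inside that span. Its log2 fold change was -1.73 ± 0.58 in vehicle and -1.15 ± 0.57 in inhibitor (SE). It was -0.72 ± 0.39 in vehicle without the WT library of line 2, and -0.70 ± 0.59 in inhibitor without the WT library of line 3.

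Fibrillin-2, which is used mostly in developing microfibrils, was more evenly low in KO than any other gene of the set. Fbn2, on the minus strand of chromosome 18, was at 19.8, 41.7 and 6.79 CPM in WT vehicle and at 3.62, 3.42 and 3.49 CPM in KO vehicle. With inhibitor it was at 13.0, 11.7 and 26.6 CPM in WT and at 3.56, 3.44 and 5.37 CPM in KO. All 6 KO libraries lay below all 6 WT libraries. Fitted log2 fold changes were -2.70 ± 0.58 in vehicle, -2.05 ± 0.57 in inhibitor and -2.33 ± 0.25 over line sums (SE). Without WT vehicle line 2 the vehicle value was -1.92 ± 0.48, and without WT inhibitor line 3 the inhibitor value was -1.58 ± 0.57.

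Mfap4 was the rarest of the set in KO. The gene (chr11:61485431-61488900, plus strand) was at 1.58, 4.67 and 0.490 CPM in WT vehicle and at 0.183, 0.130 and 0.0784 CPM in KO vehicle, which is 5, 3 and 2 counts. It was at 0.854, 0.898 and 3.20 CPM in WT inhibitor, and the KO inhibitor libraries held 0, 2 and 15 counts, the last equal to 0.477 CPM. A library of 0 counts allows up to 3 counts, for counting error only. All 6 KO libraries again lay below all 6 WT libraries, by a narrow gap between 0.477 and 0.490 CPM. For KO against WT the log2 fold change was -4.05 ± 1.25 in vehicle, -3.20 ± 1.18 in inhibitor and -3.59 ± 0.62 over line sums (SE). In vehicle it was -2.95 ± 1.22 without WT vehicle line 2, and in inhibitor -2.29 ± 1.21 without WT inhibitor line 3. Without KO inhibitor line 3 the remaining KO inhibitor libraries held 0 and 2 counts. A floor of 3 counts per library, 0.0902 CPM, was 18.3-fold below the WT inhibitor mean of 1.65 CPM. That mean was raised by WT inhibitor line 3, at 3.20 CPM against 0.854 and 0.898 CPM in the other lines. The ratio leaves out the highest KO library and keeps the highest WT library, so it is no lower bound on the group difference. Mfap4 shares 89 of its 1922 exonic bases with Mapk7 on the opposite strand, which had 17.1 to 31.1 CPM, and the sources used here do not say whether counting used the strand.

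**Figure D2:**
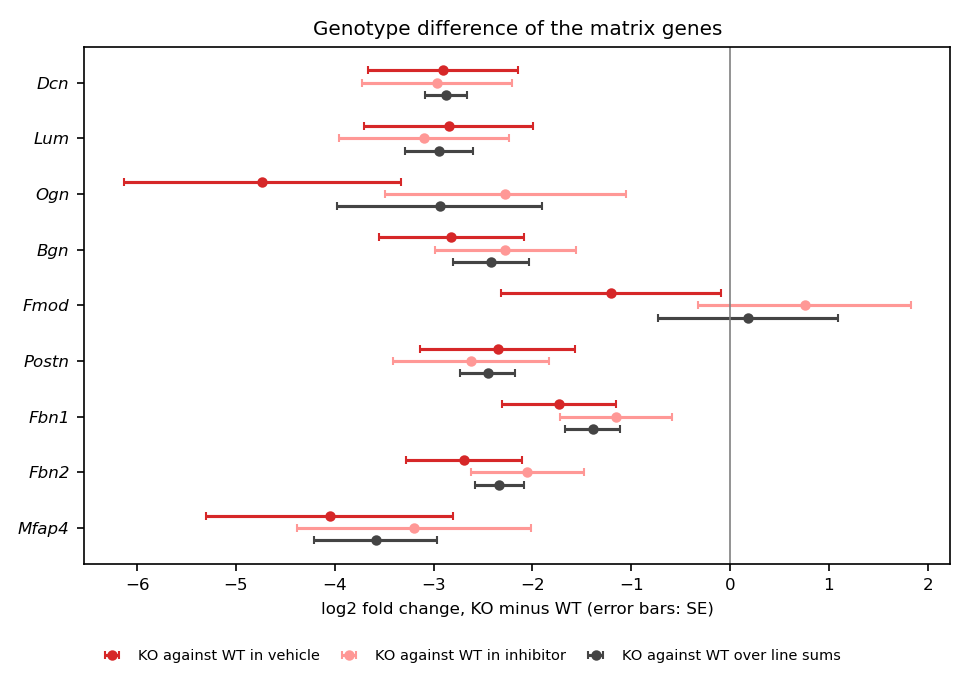
Log2 fold change of KO minus WT for each matrix gene in vehicle, in inhibitor and with the libraries of a line summed (points; bars, SE). All points lie below 0 except those of Fmod in inhibitor (0.75) and over line sums (0.18).

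The libraries of the genotypes did not overlap, with KO lower, for 5 of 9 genes in vehicle (Dcn, Ogn, Bgn, Fbn2 and Mfap4), a pattern that 4.9% of all genes tested also had. In inhibitor this held for 7 of 9 genes, all but Ogn and Fmod, against 7.02% of all genes. Over all 12 libraries it held for Dcn, Fbn2 and Mfap4, 3 of 9, against 0.505% of all genes. Since the genes were picked on this contrast, the shares describe the set and nothing more is read from them. Leaving out a library can only raise such a count. Without KO inhibitor line 3 the count over all libraries was 5 (1.43% of all genes). Without WT vehicle line 3, the lowest of its group for all 9 genes, it was 7 (0.945%). Without WT vehicle line 2, the median difference in vehicle was -1.81, and without WT inhibitor line 3 the median in inhibitor was -1.76. The WT libraries highest in matrix genes thus carried part of the size of the difference in both treatments.

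The make-up of the set differed between libraries. Fbn1 gave 6.92% to 10.9% of the summed cRPKM of the 9 genes in the WT libraries and 12.6% to 21.7% in the KO libraries, with no overlap. Ogn gave 2.11% to 5.97% in WT, and 0.339% to 1.94% in the KO libraries other than the inhibitor library of line 3. In that library Ogn gave 11.4% and Fmod 20.4%, and Postn only 6.0%, where it gave 22.9% to 40.6% in the other 11 libraries. Dcn gave 22.8% to 32.6% in WT and 15.4% to 27.4% in KO. A share of a sum rises for a gene that differs less than the rest, so the Fbn1 shares restate its smaller genotype difference. These shares use the same libraries as the choice of genes and are not tested.

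**Figure D3:**
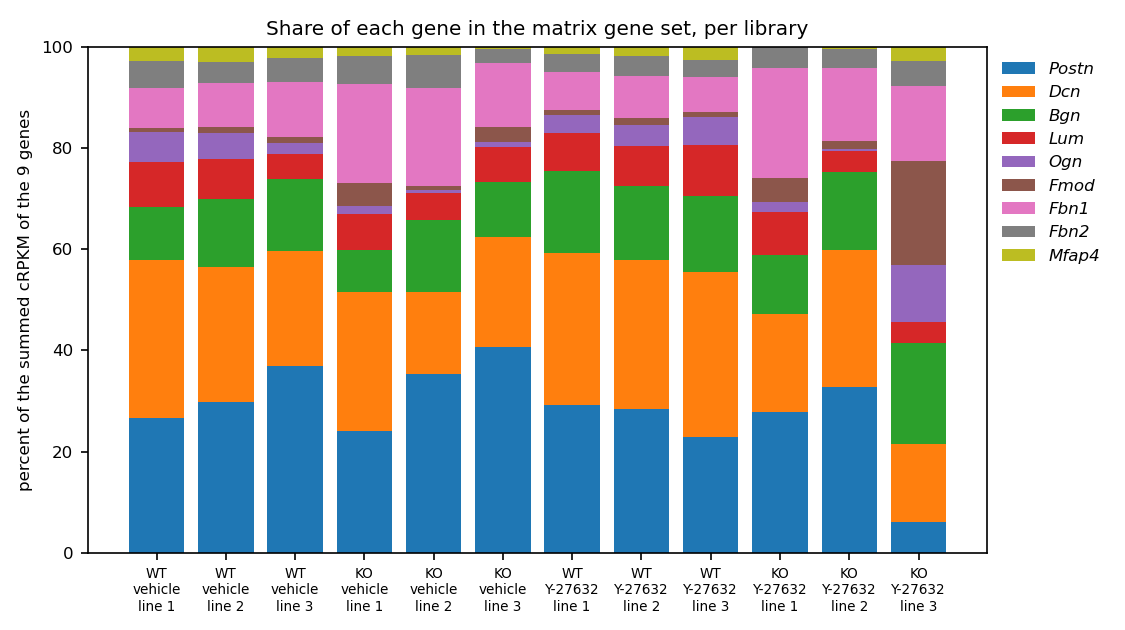
Share of each matrix gene in the summed cRPKM of the 9 genes (y axis, percent) in each of the 12 libraries. Fbn1 takes a larger share in all KO libraries (12.6% to 21.7%) than in WT (6.92% to 10.9%), and KO inhibitor line 3 has 20.4% Fmod and 6.0% Postn.

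Y-27632 for 2 h gave no call for any of the 9 genes in either genotype. Over all 15443 genes tested, edgeR's quasi-likelihood test with Benjamini-Hochberg adjustment called 0% in WT, 0% in KO and 0% for the interaction of genotype and drug. At an unadjusted p below 0.05 edgeR held 47, 1088 and 185 genes, none of them among the 9. DESeq2 held 66, 2164 and 508 genes at that unadjusted level and called 0 in each at an adjusted p below 0.05. The inhibitor and vehicle libraries overlapped for all 9 genes in both genotypes, whereas 5.97% of all genes did not overlap in WT and 8.85% in KO. The vehicle libraries of these comparisons also entered the contrast that chose the genes.

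In WT the fitted drug effect was smaller than its standard error for all 9 genes. The log2 fold changes ran from -0.44 for Mfap4 to 0.20 for Bgn, with a median of -0.10, and 6 genes had lower and 3 higher fitted levels. The largest SE was 1.15, for Ogn, and the smallest 0.55, for Fbn2, with an adjusted p of 1 for each of the 9 genes by edgeR. This near-zero median came from opposite movements in single lines. On the log2(CPM + 0.1) scale all 9 genes were lower with inhibitor in WT line 2, by a median of -1.81 (range -2.26 to -1.54), and all 9 were higher in WT line 3, with a median of 2.49 (range 1.80 to 3.70). WT line 1 lay between, with a median of -0.04. A drop in line 2 together with a rise in line 3 was also found in 37.2% of all genes tested. Without WT vehicle line 2 the median drug effect over the 9 genes was 0.89, without WT inhibitor line 3 it was -0.64, and without both it was 0.36.

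In KO the fitted values were higher with the drug for 7 of the 9 genes, and none passed the test. The 2 largest belonged to Ogn, with a log2 fold change of 2.36 ± 1.32 (SE; adjusted p = 0.474 by edgeR), and Fmod, with 1.89 ± 1.12 (adjusted p = 0.477 by edgeR). Without KO inhibitor line 3 these values were 0.14 ± 1.30 and 0.17 ± 1.01 (adjusted p = 1 for each by edgeR). Bgn had 0.75 ± 0.70, and was higher with the drug in 3 of 3 KO lines. Postn had -0.53 ± 0.76 and was higher in lines 1 and 2 and lower by -2.97 in line 3. Dcn, Lum, Fbn1, Fbn2 and Mfap4 lay between -0.11 and 0.42. The interaction of genotype and drug ran from -0.27 to 2.46 over the 9 genes, with a median of 0.58, and the smallest unadjusted p was 0.189 by edgeR's test across all genes.

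**Figure D4:**
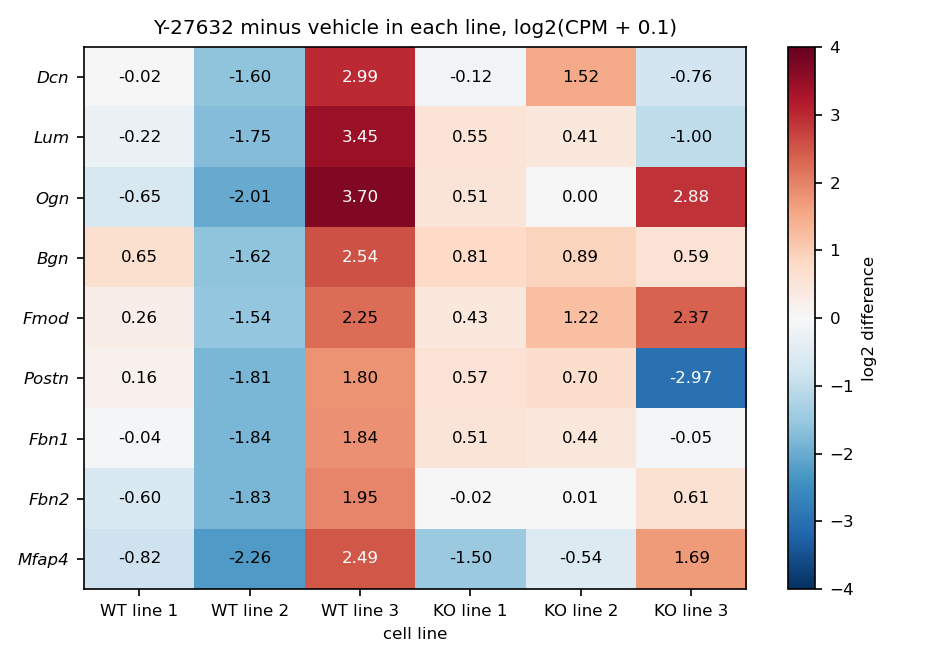
Difference of inhibitor minus vehicle on the log2(CPM + 0.1) scale for each matrix gene (rows) in each cell line (columns; red higher and blue lower with inhibitor). All 9 genes are lower in WT line 2 and higher in WT line 3, and KO line 3 combines higher Ogn (2.88) and Fmod (2.37) with lower Postn (-2.97).

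Within WT the 9 genes varied together from library to library. All 9 had the order line 2 above line 1 above line 3 in WT vehicle, an order shared by 28.8% of all genes tested, and all 9 were highest in line 3 in WT inhibitor, as were 46.7% of all genes. Both orders were met by 23.6% of all genes. Over the 6 WT libraries the Pearson r of log2 CPM for the 36 pairs of the 9 genes ran from 0.895 to 0.999 with a median of 0.950, and the highest value belonged to the neighbours Dcn and Lum. Over the 6 KO libraries r ran from -0.81 to 0.952 with a median of 0.420, the lowest being Postn with Fbn2 and the highest Ogn with Fmod. These values describe 6 libraries each, which share total depth and make-up of the culture, and in KO they rest on few counts and on the inhibitor library of line 3.

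The genes with patterns most like each matrix gene over all 12 libraries were picked by Pearson r of log2 CPM among 13424 genes with a mean of at least 1 CPM. Dcn was closest to Col3a1 (r = 0.988), Cpz (0.984) and Col1a1 (0.984), the collagens being the main fibril formers of soft tissue and bone. Lum was closest to Ccn3 (0.987), Thbs2 (0.984) and Hic1 (0.984), and Ogn to Pcolce (0.979), Aebp1 (0.971) and Igf2 (0.971), where Pcolce is an enhancer of procollagen processing. Bgn was closest to Mmp2 (0.977), a gelatinase, then to Antxr2 (0.970) and Col3a1 (0.969). Postn was closest to Igfbp7 (0.984), Ccn4 (0.984) and Ptprv (0.957). Fbn1 was closest to Loxl1 (0.980), an enzyme that crosslinks elastin, Mmp2 (0.973) and Col6a2 (0.963).

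Fbn2 was closest to Col12a1 (0.980), Sod3 (0.972) and Mmp2 (0.970), and Mfap4 to Col5a3 (0.965), Fbn2 (0.959) and Col12a1 (0.940). Fmod again stood aside, with Gm11127 (0.971), Ston1 (0.966) and Mboat1 (0.966), none of them a matrix gene of the lists used here. Its r with the other 8 genes ran from 0.17 to 0.71 over 12 libraries. The range was 0.59 to 0.87 without KO inhibitor line 3, and 0.91 to 0.97 over the 6 WT libraries. Such r values over 12 libraries include the genotype difference that chose the genes. After each group mean was subtracted, Dcn had Col3a1 first (0.980), followed by Loxl1 (0.972) and Col1a2 (0.961). Postn then had Ccn4 (0.981), Sema3d (0.955) and Igfbp7 (0.948), and Fbn1 had Tns1 (0.990), Spsb1 (0.974) and Loxl1 (0.971).

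Other genes of the same matrix were counted from 6 lists, in which edgeR's quasi-likelihood test called 0 genes in either direction in any of the 6 comparisons. Among collagens that form or coat fibrils, 14 were tested. Of these, fitted levels were lower in KO for 11 in vehicle and 13 in inhibitor, with medians of -1.92 and -1.85 on the log2 scale. The median was -1.14 in vehicle without WT vehicle line 2 and -1.36 in inhibitor without WT inhibitor line 3. Col1a1 averaged 216 ± 223 CPM in WT vehicle and 22.4 ± 18.7 CPM in KO vehicle (SD, n = 3), and Col3a1 172 ± 161 and 14.3 ± 8.35 CPM. Their log2 fold changes in vehicle were -3.27 ± 0.88 and -3.59 ± 0.83 (SE; adjusted p = 0.999 for both by edgeR). Both collagens ranged widely within WT, Col1a1 from 37.3 to 466 CPM and Col3a1 from 37.8 to 351 CPM.

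Basement membrane genes, which build the sheet under epithelia and around vessels, differed in direction between treatments, a difference that rested on KO inhibitor line 3. Of the 13 tested, 12 had lower fitted levels in KO in vehicle (median -2.33) and 10 had higher levels in KO in inhibitor (median 1.35). All 13 were lower in KO in inhibitor without KO inhibitor line 3, with a median of -1.15, and without WT vehicle line 2 the median in vehicle was -0.48. Col4a1 averaged 1942 ± 2521 CPM in WT vehicle and 320 ± 315 CPM in KO vehicle, and Col4a2 1140 ± 1432 and 226.9 ± 158 CPM (SD, n = 3). The summed level of the list was 42120 CPM in KO inhibitor line 3, against 507 and 4611 CPM in the other KO inhibitor libraries. Postn, Dcn and Lum were at 1.97, 2.73 and 0.985 CPM in that library.

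Partners of the elastic fibre had a median of -1.45 in vehicle, with 20 of 23 tested genes lower in KO, and -0.41 in inhibitor, with 17 of 23. The median was -0.58 in vehicle without WT vehicle line 2 and, in inhibitor, -0.84 without KO inhibitor line 3 and -0.19 without WT inhibitor line 3. The most abundant of them per length were Loxl2, a lysyl oxidase, with a log2 fold change of -2.33 ± 1.14 in vehicle and 0.01 ± 1.09 in inhibitor, and Efemp2, a fibulin, with -0.76 ± 0.69 and 0.52 ± 0.69 (SE). Of 13 other small leucine-rich proteoglycans 8 were tested, and 6 were lower in KO in vehicle (median -0.72) and 4 in inhibitor (median -0.03). Without KO inhibitor line 3, 7 of the 8 were lower in inhibitor (median -0.84), and without WT vehicle line 2 the median in vehicle was -0.31. Chadl was at 0.18 ± 0.32 in vehicle and Prelp at -1.53 ± 0.97 (log2 fold change ± SE). Omd, Kera, Chad and Podnl1 held 3 counts or fewer in every library. Aspn, chosen for naming after its values were seen, lies 40.5 kb from Ogn and averaged 2.66 ± 2.54 CPM in WT vehicle and 0.326 ± 0.108 CPM in KO vehicle (SD, n = 3).

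Enzymes that build the glycosaminoglycan chains of decorin and biglycan had a median near 0 between genotypes, with single enzymes far from it. Of 19 tested, 16 had lower fitted levels in KO in vehicle with a median of -0.10, and 8 in inhibitor with a median of 0.05. Without WT vehicle line 2, 9 were lower in vehicle (median 0.0002), and without KO inhibitor line 3, 11 were lower in inhibitor (median -0.08). B3gat3, an enzyme that completes the linker between core protein and chain, had a log2 fold change of -0.03 ± 0.11 in vehicle, and Chpf, a chondroitin polymerising factor, -0.15 ± 0.15 (SE). Of the enzymes of dermatan sulfate synthesis, named after their values were seen, Chst14 was at -2.12 ± 1.40 in vehicle and 1.11 ± 1.33 in inhibitor. Dse was at -1.02 ± 0.61 and 0.55 ± 0.60, and Dsel at -0.04 ± 0.24 and -0.21 ± 0.24. The sulfotransferase Chst15, also named after its values were seen, was at -0.39 ± 0.62 and 1.09 ± 0.63. In KO inhibitor Chst14 averaged 10.5 ± 14.6 CPM, Dse 18.8 ± 15.5 CPM and Chst15 163 ± 175 CPM (SD, n = 3). TGF-beta and BMP ligands and receptors had a median of -0.55 in vehicle, 17 of 18 lower, and 0.27 in inhibitor, 4 of 18 lower. When KO inhibitor line 3 was left out, 14 of 18 were lower in inhibitor (median -0.55), and without WT vehicle line 2 the median in vehicle was -0.09. Among them Bmpr2 was at -0.04 ± 0.20 and Bmpr1a at -0.57 ± 0.51 in vehicle (log2 fold change ± SE). None of these list values passed the test.

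**Figure D5:**
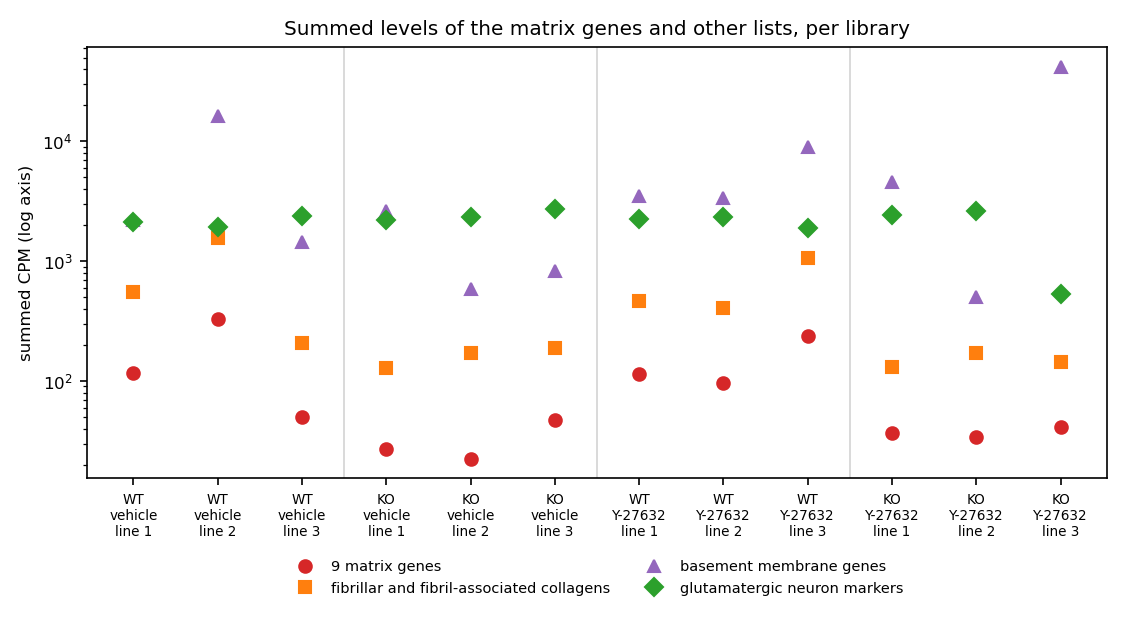
Summed CPM (log axis) of the 9 matrix genes, the fibril collagens, the basement membrane genes and the glutamatergic neuron markers in each library. The matrix genes sum to 49.9 to 329 CPM in WT and 22.5 to 46.8 CPM in KO, and KO inhibitor line 3 has 42120 CPM of basement membrane genes and 531 CPM of neuron markers.

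Some markers of cells that could make this matrix differed between the groups along with the 9 genes, others did not, and their part in the result was not tested. The 9 genes summed to 49.9 to 329 CPM in WT and to 22.5 to 46.8 CPM in KO. The 15 fibroblast and mesenchymal markers, 3 of them collagens of the list above, summed to 457 to 1558 CPM in WT vehicle, 487 to 620 in KO vehicle, 650 to 1107 in WT inhibitor and 558 to 695 in KO inhibitor. Thy1, which neurons also express, gave 308 to 363 CPM of this in WT, 416 to 512 CPM in KO vehicle and 448, 482 and 109 CPM in KO inhibitor. Without Thy1 the list summed to 374, 1216 and 116 CPM in WT vehicle, 70.5, 36.1 and 108 CPM in KO vehicle, 331, 292 and 799 CPM in WT inhibitor and 110, 82.8 and 586 CPM in KO inhibitor. With Thy1 left out and KO inhibitor line 3 set aside, both after the values were seen, every KO library was below every WT library. The gap was narrow, between 110 CPM in KO inhibitor line 1 and 116 CPM in WT vehicle line 3. With Thy1 kept in, the vehicle groups overlapped. Col1a1, Col1a2 and Col3a1 gave 145, 67.8 and 128 CPM of the sum without Thy1 in WT vehicle line 1. The sum there largely repeated the collagens. Twist1 overlapped between genotypes, at 9.08, 9.65 and 10.5 CPM in WT vehicle and 7.39, 9.17 and 10.0 CPM in KO vehicle. Pdgfra, a marker of fibroblasts and of glial precursors, was at 18.9, 152 and 10.9 CPM in WT vehicle and at 26.4, 3.42 and 4.55 CPM in KO vehicle, and reached 509 CPM in KO inhibitor line 3. WT vehicle line 2 was the highest of its group for the matrix genes and for this list, with 1558 CPM.

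The 9 mural cell markers summed to 9.56 to 133 CPM in WT vehicle, 5.45 to 13.2 in KO vehicle, 28.9 to 66.2 in WT inhibitor and 7.66 to 77.2 in KO inhibitor. The 7 meningeal markers summed to 1.04 to 8.41, 0.562 to 1.06, 3.03 to 7.10 and 0.347 to 5.43 CPM in the same order, and Slc22a6 among them held 3 counts or fewer everywhere. The 7 endothelial markers summed to 9.72 to 66.0, 3.46 to 13.4, 16.5 to 61.8 and 2.46 to 165 CPM, with Tie1 and Cldn5 at 3 counts or fewer in every library. Foxc2 of the fibroblast list was at 3 counts or fewer too. Chondrocyte markers summed to 49.3 to 50.2 CPM in WT vehicle and 61.7 to 64.0 in KO vehicle, and to 51.2 to 69.1 and 56.4 to 60.9 CPM with inhibitor. Most of the vehicle sums was Hapln1, at 38.3, 32.7 and 39.5 CPM in WT and 50.8, 48.3 and 49.7 CPM in KO. Sox9 and Col2a1 overlapped between genotypes in vehicle, at 5.88 CPM or less. Matn1, Matn3 and Comp were at 2.26 CPM or less there. Of the skeletal muscle markers, Myod1, Myog, Myf5 and Myf6 held 3 counts or fewer in every library.

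The glutamatergic marker list summed to 1879 to 2723 CPM outside KO inhibitor line 3, most of it from the general neuron genes Map2, Tubb3, Grin1 and Rbfox3. Of its defining genes, the glutamate transporter Slc17a6 was at 242 to 423 CPM in those 11 libraries, while Slc17a7, Tbr1, Neurod2 and Neurod6 were at 2.07 CPM or less in all 12. GABAergic neuron markers ran from 289 to 790 CPM, with Gad1 at 159 to 260 CPM outside KO inhibitor line 3. Pluripotency markers ran from 11.1 to 22.2 CPM and Schwann cell and neural crest markers from 3.64 to 13.2 CPM. Most of the pluripotency sum outside KO inhibitor line 3 was Esrrb, at 12.9 to 21.7 CPM. Pou5f1, Nanog and Tdgf1 were at 0.350 CPM or less in all 12 libraries. In KO inhibitor line 3 astrocyte markers summed to 1031 CPM and progenitor markers to 272 CPM, against highest values of 347 and 60.7 CPM in the other libraries. That library is the one with the highest Fmod and, among KO, the highest Ogn, Bgn, Fbn2 and Mfap4.

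Some genes beside the 9 had lower means in KO in vehicle along with them, and others did not. Around Dcn and Lum, Kera held 0 counts in every library, and Epyc at most 0.895 CPM. Next to Ogn, Nol8 averaged 23.8 CPM in WT vehicle and 22.7 CPM in KO vehicle, and Cenpp, which overlaps it, 1.60 and 1.26 CPM. Fbn1 is overlapped on the opposite strand by Gm9913, which was at 0.0865 CPM or less. The only protein-coding gene annotated within 200 kb of Postn, Trpc4, averaged 10.8 CPM in WT vehicle and 12 CPM in KO vehicle. These neighbours were picked from the genes within 200 kb after their values were seen.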

How the data were processed

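Poly(A) RNA of 12 libraries was measured with strand-specific sequencing, per the labels. The authors deposited, for each library, a table of 36902 genes with an Ensembl identifier, a read count that is not normalized, and a cRPKM value, an RPKM with a correction on which the sources used here say nothing. The build is mm10, per the submitters' processing notes. The aligner, the annotation and the use of strand in counting are not given in the sources used here. Per library 3342 genes were NA, which left 33560. Of these, 33371 matched a symbol in a table of mouse gene names, and positions are those of GENCODE M21 (GRCm38).

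Counts were tested with edgeR 4.0.16 in R 4.3.3: filterByExpr by group (15443 genes), TMM factors, robust quasi-likelihood fits with 1 coefficient per group, and Benjamini-Hochberg adjustment over all genes, called below 0.05. For line sums the 2 libraries of a line were added and 3 KO lines set against 3 WT lines (16090 genes). The biological coefficient of variation was 0.411 over libraries and 0.360 over line sums. Each SE is the log2 fold change over the root of its F statistic. DESeq2 1.42.0, scaling by totals, no filter, a line term and leaving out libraries were alternatives. Correlations use log2 CPM with a prior count of 2.

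The 9 genes, the 6 gene lists and the 12 marker lists were chosen with earlier results of these data known. From each list the 2 genes with the highest mean cRPKM were to be named, with any gene called, and for each of the 9 genes the 3 with the highest r. For the 3 of the 9 with the highest CPM, the 3 with the highest r after removal of group means were added. Vehicle and inhibitor libraries are paired by the line in the labels. The deviations of the pairs from their group means correlated at 0.41, -0.55 and -0.72 for WT lines 1 to 3 and at -0.19, 0.57 and -0.37 for KO lines. Coordinates of Fbn2 and protein sequences are not used here.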

Additional observations from a re-analysis of the deposited data

How the results depend on the processing

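Counts of called genes stayed at 0 for the drug in WT, the drug in KO and the interaction under scaling by totals, without the filter, with DESeq2, with the replicate block and without any 1 library. For KO against WT, DESeq2 called 11 genes in vehicle, 18 in inhibitor and 88 over line sums where edgeR called 0, line sums without the filter gave 2, and leaving out the 3 libraries that stood apart (chosen after seeing the data) gave 2 in vehicle and 1 in inhibitor. The paired fit with the replicate block gave medians over the 9 genes of 0.064 for the drug in WT, 0.20 in KO and 0.25 for the interaction and changed no call. Under the replicate block the sign changed in WT for Ogn (0.054), Fmod (0.34) and Postn (0.064) and in KO for Mfap4 (-0.27). Without the 2 high WT libraries the drug values in WT were 0.054 for Ogn, 0.77 for Fmod, 0.36 for Postn and 0.24 for Fbn1, and without KO inhibitor line 3 as well they were 0.064, 0.77, 0.36 and 0.24. That last setting gave 0.0041 for Lum and -1.97 for Mfap4 in KO, a median interaction of -0.38 and a median of KO against WT in vehicle of -1.79, which was -1.81 without the 2 high WT libraries alone. The cause of these changes was not tested.

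Leaving out 1 library at a time, the drug values in WT ranged from -0.47 to 1.05 for Dcn, -0.64 to 1.14 for Lum, -0.95 to 0.89 for Ogn, -0.31 to 1.32 for Bgn and -0.56 to 1.26 for Fmod. They ranged from -0.67 to 0.72 for Postn, -0.75 to 0.68 for Fbn1, -0.88 to 0.33 for Fbn2 and -1.35 to 0.64 for Mfap4, with a median from -0.64 to 0.89. In KO they ranged from -0.26 to 0.55 for Dcn, -0.44 to 0.43 for Lum, -0.95 to 0.23 for Postn, -0.0028 to 0.34 for Fbn2 and -1.99 to 0.98 for Mfap4. The median interaction ranged from -0.39 to 1.06, and the median of KO against WT from -3.30 to -1.81 in vehicle. Without KO inhibitor line 3, the Mfap4 value in KO rests on inhibitor libraries of 0 and 2 counts and depends on the prior count.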
